A study of Mus musculus with 6 samples.

Results

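The golgins and GRASP proteins, which organize the Golgi complex that procollagen crosses on its way out of the osteoblast (OB), were followed in MC3T3-E1 cells with and without ascorbic acid (AA). The 10 genes were taken by name: Golga1, Golga2, Golga3, Golga4, Golga5, Golgb1, Trip11, Uso1, Gorasp1 and Gorasp2. Every probe set of the array annotated to one of them was kept, which gave 24 probe sets, all annotated to that gene alone, among 45037 tested. All 10 genes were measured, of 18193 genes that have a probe set of their own. The rule uses names and no measured value, but the family was picked with earlier results of these data known.

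MC3T3-E1 subclone 4 is a mouse calvarial pre-osteoblast line that makes and secretes type I collagen, and its cultures need AA to hydroxylate procollagen. The experiment compared 3 control cultures, left untreated, with 3 cultures given AA, both collected at day 5. AA is labelled as 50 µg with no volume stated, which the methods of the study give per ml. Each RNA was read on its own Affymetrix Mouse Genome 430 2.0 array. The sources used here speak both of wells in triplicate and of triplicate experiments, so the p-values measure the spread between these samples, which may be technical. RNA came from whole cultures, so fewer cells of a type and less RNA per cell cannot be told apart.

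Golgins are long coiled-coil proteins that stand out from Golgi membranes and catch passing vesicles, and each belongs to its own part of the stack. GRASP proteins bind the cytosolic face of the cisternae and to each other, and so join cisternae into stacks and stacks into a ribbon. GM130 (Golga2) holds GRASP65 (Gorasp1) and the vesicle tether p115 (Uso1) at the cis face, golgin-45 (Blzf1) holds GRASP55 (Gorasp2) further along the stack, and golgins with a GRIP domain, Golga1 and Golga4, are held at the trans-Golgi by the GTPase Arl1. Loss of GMAP-210, the product of Trip11, is known to cause a lethal skeletal dysplasia in humans and mice.

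The deposited arrays had been scaled to one trimmed mean, and their median signals ran from 14.9 (control replicate 1) to 17.7 (control replicate 2). After quantile normalization the log2 signals correlated at 0.941 to 0.946 between arrays of the same group and at 0.933 to 0.945 between groups. As a measure of how intact the RNA was, the 3′ signal of Gapdh over its 5′ signal was 0.807, 0.809 and 0.920 in control cultures and 0.791, 0.799 and 0.799 in AA cultures, with control replicate 3 the highest. Of the 6 osteoblast markers measured, Alpl and Ibsp rose, with log2 fold changes of 1.52 and 1.53. By their brightest probe sets Col1a1 (0.11), Col1a2 (0.04), Sp7 (0.29) and Sparc (-0.02) did not pass, though 1 of 2 Col1a1 probe sets rose. Spp1, Bglap and Runx2 had no probe set of their own. Of the leukocyte markers 1 of 4 passed, Csf1r, and the summed signal of these markers was 35.5 to 46.7 on control and 97.1 to 118 on AA arrays. Csf1r carried most of that sum, with mean signals of 24.5 in control and 87.4 in AA cultures. The means of Cd68 were 12.7 and 13.1, those of Ptprc 1.19 and 2.79, and those of Itgam 2.61 and 1.77. No marker of adipocytes (3 measured), skeletal muscle (4), endothelium (4) or epithelium (4) passed the limma test. The part of these cell type signals in the results on Golgi genes was not tested.

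Most golgin and GRASP probe sets had higher mean signals in AA cultures, and the GRASP gene Gorasp2 and the tether gene Uso1 rose past the test. Of the 24 probe sets, 4 rose and 0 fell in the limma test at an adjusted p under 0.05. These 4 are 16.7% of the member probe sets, where 2.71% of all probe sets were higher and 2.50% lower. At an unadjusted limma p under 0.05, 8 member probe sets were higher and 0 lower, against 8.58% of all probe sets higher. All 8 were above the median signal of the arrays, where 3165 of 22117 probe sets were higher at this p. The probe sets that rose were both of Gorasp2, the only probe set of Uso1 and 1 of 3 of Golga4, with folds of 1.33 to 2.33. All 4 were above the median signal of the arrays, a range in which 5.32% of probe sets rose. A mean log2 fold change above 0 was found in 20 of the 24 probe sets (83.3%, and 49.2% of all probe sets), and the median was 0.26 for the members and -0.01 over all probe sets. Probe sets of one gene read the same transcripts and are not independent of each other. The calls rested on the estimate of the spread: with variances moderated without a trend in signal, and by the methods' t-test after Benjamini-Hochberg adjustment, 0 of the 24 and 0 of all probe sets passed, and at an unadjusted p under 0.05 these counted 3 and 7 member probe sets higher and 0 lower, where 5.74% and 5.80% of all probe sets were higher.

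The same-numbered cultures were also compared pair by pair, though the numbers did not pair the cultures by their values, as given at the end. In 15 of 24 member probe sets (62.5%) the AA culture was above the control culture of the same replicate number in all 3 pairs, as it was in 18.9% of all probe sets. Above the median signal this held for 14 of 20 member probe sets and for 24% of all probe sets. In 12 of the 24 all 3 AA arrays lay above all 3 control arrays, and in 0 did they lie below. Over all probe sets, 11.0% had all AA arrays above all controls. Of the 20 member probe sets above the median signal, 11 were separated in this way, and 16.2% of all probe sets in that range were. These shares were taken on the quantile-normalized log2 signals. Calls over the whole array leaned on the scaling: 52.0% of all calls were higher in AA after quantile normalization, 48.6% on the signals as deposited and 39.5% after median centring, where 1 member probe set was still called, that of Gorasp2 with the larger change.

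**Figure D1:**
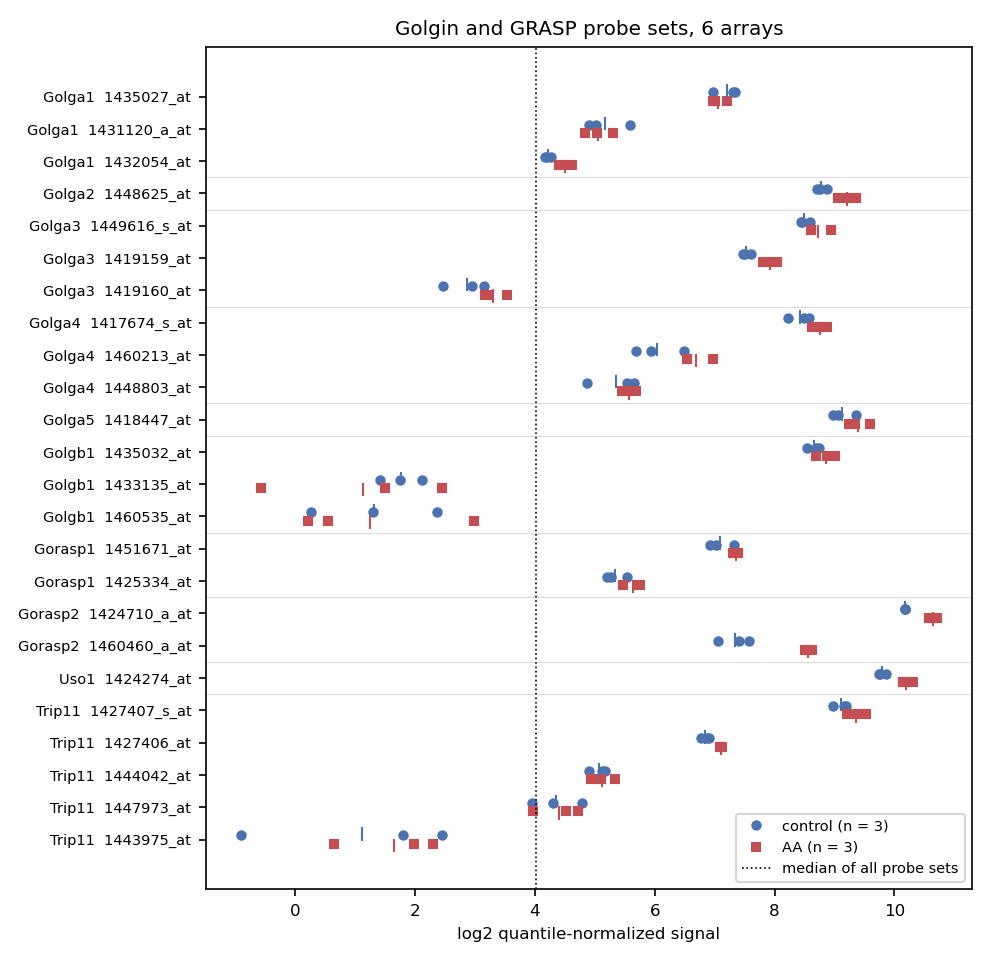
Log2 quantile-normalized signal (x axis) of each of the 24 probe sets, grouped by gene. Circles are the 3 control and squares the 3 AA cultures, short vertical lines are group means, and the dotted line is the median of all probe sets, 4.02. In 12 probe sets every AA square lies to the right of every control circle, and 4 probe sets have means below the dotted line.

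Gorasp2 encodes GRASP55, which links cisternae of the medial and trans Golgi, and it had the clearest change in the family. Its brighter probe set had deposited signals of 1165, 1138 and 1172 in control and of 1726, 1562 and 1608 in AA cultures. The groups did not overlap, and the gap between them was wider than the range within either. The means were 1159 ± 18.1 (SD, n = 3) and 1632 ± 84.4 (SD, n = 3), a 1.38-fold rise with a 95% interval of 1.23 to 1.55 (0.47 on the log2 scale with a standard error of 0.07, limma adjusted p = 0.00938). This probe set passed in 14 of 19 alternatives. The call was lost without replicate 2 (adjusted p = 0.0505) and after median centring (adjusted p = 0.0711), among others.

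The dimmer Gorasp2 probe set had signals of 191, 173 and 132 in control and 354, 369 and 397 in AA cultures. Its lowest AA value stood well clear of its highest control value. The rise was 2.33-fold with a 95% interval of 1.89 to 2.86 (1.22 on the log2 scale with a standard error of 0.13, limma adjusted p = 0.00200), and it had the smallest p of the 24 probe sets. It passed in 16 of 19 alternatives, among them those with each replicate left out, at log2 fold changes of 1.04 to 1.36. The call was lost with variances moderated without a trend. It was also lost by the methods' t-test, both at an unadjusted p under 0.01 and after adjustment. On the log2 scale the dimmer probe set gained 0.75 more than the brighter one. The difference between the probe sets (dimmer minus brighter) averaged -2.84 ± 0.26 (SD, n = 3) over control cultures and -2.09 ± 0.10 (SD, n = 3) over AA cultures. An exact two-sided permutation test of 3 arrays against 3 cannot go below p = 0.1, so this difference is given as a description.

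Uso1 encodes p115, which tethers vesicles arriving from the ER and binds GM130. Its single probe set had signals of 876, 846 and 938 in control and 1277, 1131 and 1132 in AA cultures. Each AA culture was above every control culture. The means of 887 ± 46.8 (SD, n = 3) and 1180 ± 84.3 (SD, n = 3) gave a 1.33-fold rise with a 95% interval of 1.16 to 1.51 (0.41 on the log2 scale with a standard error of 0.08, limma adjusted p = 0.0277). This probe set passed in 7 of 19 alternatives. The call was lost without replicate 1 or replicate 2 (adjusted p = 0.102 and 0.139) and after median centring (adjusted p = 0.146). It was also lost with 50 added to every signal (limma adjusted p = 0.0535). The methods' t-test at an unadjusted p under 0.01 and the methods' threshold of p and fold, taken with limma p, did not keep the call either. In the fit without the replicate block the call was lost without control replicate 2 (adjusted p = 0.0784) and without AA replicate 1, 2 or 3 (adjusted p = 0.0680, 0.0745 and 0.0532).

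By the brightest probe set of each gene, Gorasp2 and Uso1 were the 2 of 10 members that rose, and 0 fell. Over all genes read in this way 4.06% rose and 3.83% fell. At an unadjusted limma p under 0.05 the members numbered 5 higher and 0 lower by this reading, where 10.7% of all genes were higher. All 10 members were above the median signal, and 7467 of the 18193 genes were not, so these shares include many dim genes.

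**Figure D2:**
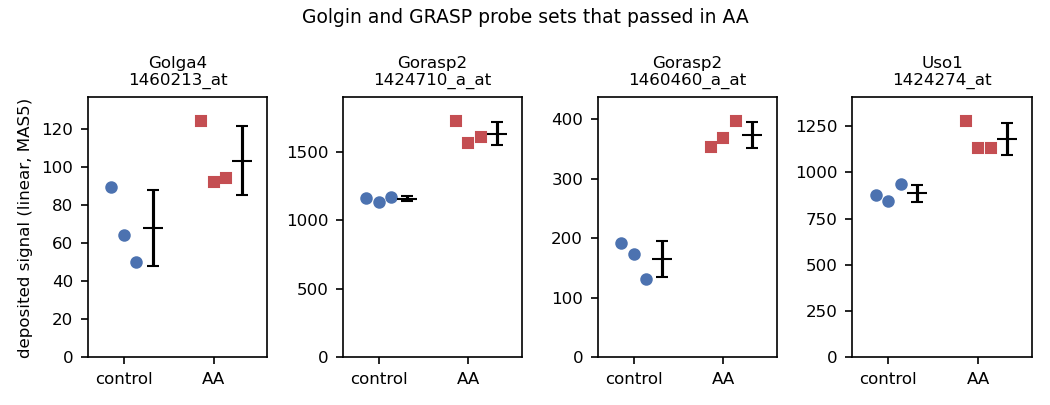
Deposited linear signal (y axis, from 0) of the 4 probe sets that passed, 1 panel each with its own scale. Circles are control and squares AA cultures in replicate order, and the bars beside them give the mean ± SD of n = 3. The AA squares of the dimmer Gorasp2 probe set run from 354 to 397 and its control circles from 132 to 191, while those of Golga4 come close to each other at 89.3 and 91.8.

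The partners at the cis face had higher mean signals in AA cultures and did not pass. Golga2 encodes GM130, the protein by which the study stained the Golgi. Its probe set had signals of 437, 472 and 426 in control and 648, 523 and 589 in AA cultures. All AA cultures were above all control cultures, with AA replicate 2 the nearest to them. The fold was 1.34 with a 95% interval of 1.14 to 1.57 (0.42 on the log2 scale with a standard error of 0.10, limma adjusted p = 0.0507), just short of the threshold. This probe set passed in 3 of 19 alternatives. Without the replicate block the adjusted p was 0.0393, and with the test limited to probe sets brighter than the median it was 0.0367. After median centring the adjusted p was 0.140, and without replicate 1 it was 0.164. Without AA replicate 1 and without the block it was 0.120.

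Gorasp1 encodes GRASP65, the stacking protein held by GM130. Its brighter probe set had signals of 131, 125 and 160 in control and 165, 166 and 158 in AA cultures. Control replicate 3 reached the AA range, so the groups overlapped. The fold was 1.21 with a 95% interval of 0.981 to 1.49 (adjusted p = 0.330 from limma), and that of the dimmer probe set was 1.23 with an interval of 0.920 to 1.66 (adjusted p = 0.455). These intervals still hold a rise as large as the one of the brighter Gorasp2 probe set, and a difference in response between the 2 GRASP genes was not tested.

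Trip11 encodes GMAP-210, a cis-Golgi tether for highly curved vesicles. The brightest of its 5 probe sets had signals of 592, 506 and 583 in control and 736, 583 and 655 in AA cultures. AA replicate 2 fell within the control range as deposited, and after quantile normalization the groups did not overlap. The fold was 1.19 with an interval of 1.05 to 1.35 (log2 fold change 0.25, adjusted p = 0.130 from limma). A second probe set had a fold of 1.20 (adjusted p = 0.294), from signals of 113 to 120 in control and 134 to 140 in AA cultures, again without overlap. The 3 dimmest Trip11 probe sets had means of 3.11 to 33.6 in control cultures and overlapped between groups.

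Among the golgins of the trans-Golgi, Golga4 had higher and Golga1 lower mean signals in AA cultures by the brightest probe set, a difference that was not tested. Golga4 encodes the GRIP-domain golgin p230, also called golgin-245. Its brightest probe set had signals of 384, 365 and 305 in control and 462, 390 and 437 in AA cultures. The groups were separated, by a narrow gap between control replicate 1 and AA replicate 2. The fold was 1.26 with an interval of 1.07 to 1.48 (log2 fold change 0.33, adjusted p = 0.119 from limma). A dimmer Golga4 probe set rose, from 89.3, 64.0 and 49.9 to 124, 91.8 and 93.9 (fold 1.57 with an interval of 1.24 to 1.97, adjusted p = 0.0426 from limma). Here the range of the control cultures was wider than the difference between the means, and without the replicate block the adjusted p was 0.151. The call was also lost without replicate 1, 2 or 3 (adjusted p = 0.0700, 0.176 and 0.108) and after median centring (adjusted p = 0.0625), and its log2 fold change of 0.65 became 0.40 with 50 added to every signal. The remaining Golga4 probe set had a fold of 1.16 (adjusted p = 0.649).

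Golga1 encodes golgin-97, also a GRIP-domain golgin. Its brightest probe set had signals of 127, 162 and 162 in control and 124, 128 and 148 in AA cultures. It was the only brightest probe set of the family with a lower mean in AA, in 3 of 3 pairs, with overlapping groups. The fold was 0.904 with an interval of 0.750 to 1.09 (log2 fold change -0.15, adjusted p = 0.597 from limma), so it did not pass. The other two probe sets of Golga1 had folds of 0.918 and 1.21 (adjusted p = 0.838 and 0.678).

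The golgins placed along the body of the stack had higher means that did not pass. Golga5 encodes golgin-84, a membrane-anchored golgin that catches vesicles within the Golgi. Its probe set had signals of 543, 510 and 661 in control and 767, 645 and 604 in AA cultures, with control replicate 3 inside the AA range. The fold was 1.19 with an interval of 0.983 to 1.45 (adjusted p = 0.327 from limma), and it passed only when replicate 3 was left out (log2 fold change 0.45, adjusted p = 0.0321). Golgb1 encodes giantin, a large membrane-anchored golgin. Its one probe set above the median signal had 432, 379 and 420 in control and 504, 459 and 415 in AA cultures. AA replicate 3 lay within the control range, and the fold was 1.15 with an interval of 0.985 to 1.34 (adjusted p = 0.332 from limma). The other two Golgb1 probe sets had mean signals of 2.81 to 3.60 in either group, and their intervals of log2 fold change, -2.49 to 1.22 and -2.06 to 1.94, bound little.

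Golga3 encodes golgin-160, a peripheral golgin of the stack. Its brightest probe set had signals of 356, 351 and 392 in control and 484, 387 and 394 in AA cultures. AA replicate 1 stood above the rest, and the other two AA arrays were near control replicate 3, with AA replicate 2 below it as deposited and above it after normalization. The fold was 1.17 with an interval of 0.986 to 1.39 (adjusted p = 0.325 from limma). A second probe set was better separated, with 183, 183 and 196 against 257, 242 and 227. Its fold was 1.32 with an interval of 1.11 to 1.57 (log2 fold change 0.40, adjusted p = 0.0796 from limma). The dimmest Golga3 probe set, below the median signal, had a fold of 1.36 and an interval of 0.647 to 2.84.

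**Figure D3:**
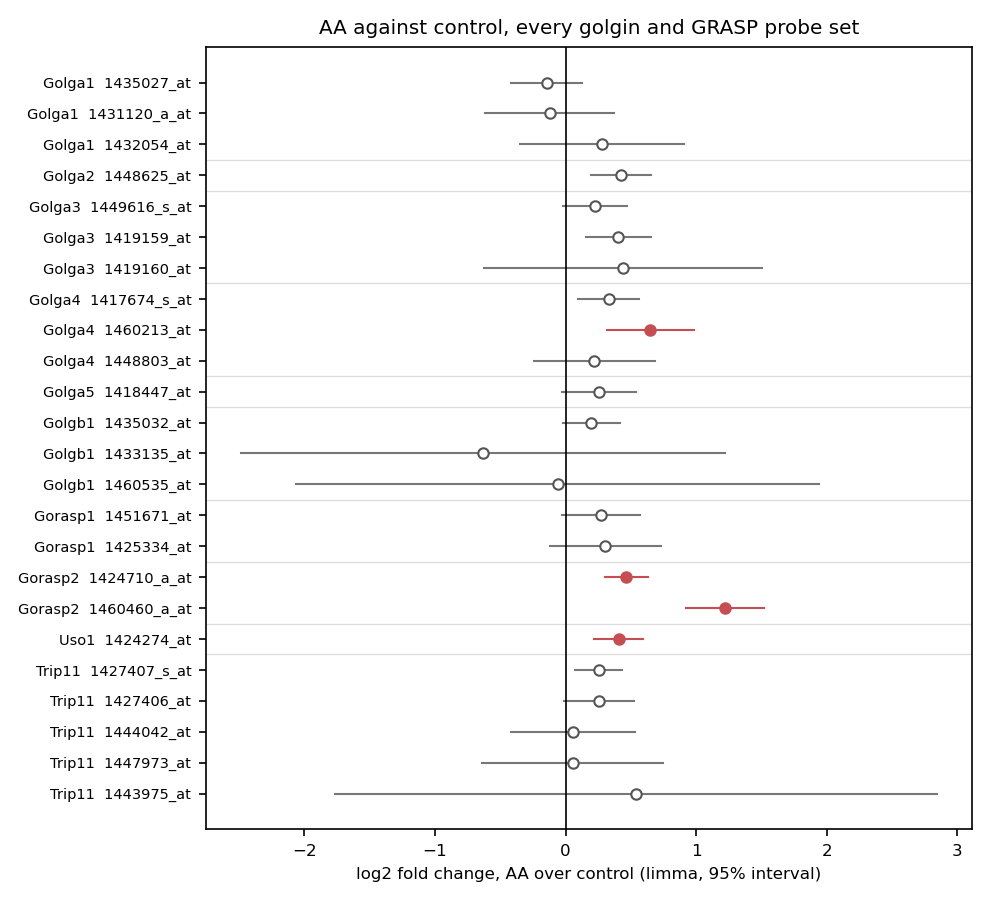
Log2 fold change of AA over control (x axis) from limma for each of the 24 probe sets, grouped by gene, with 95% intervals as lines. Points are filled where the adjusted p was under 0.05. The dimmer Gorasp2 probe set stands at 1.22, the other passing points lie between 0.41 and 0.65, and the widest intervals belong to the 4 probe sets below the median signal.

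The genes whose arrays followed the dimmer Gorasp2 probe set most closely were Pbdc1, Apool, Snf8, C1qtnf3 and Zcchc9, with Pearson correlations of 0.994 to 0.997 over the 6 arrays. All 5 rose in AA by limma, with log2 fold changes of 0.41 to 1.57. With 6 arrays in 2 groups such likeness is common: 228 of 7127 genes above the upper quartile of signal had a correlation over 0.95. It is given as a description.

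The sequences before the start sites of the members that rose are shown because these were the genes called by their brightest probe set. RefSeq promoters on GRCm38.p6 (250 bases before to 50 after each annotated start) were at hand for 8 of the 10 genes, with 9 starts in all. Both strands were searched for ACGTGGC, the Golgi stress response element, for TGACGTG, the core of the unfolded protein response element, and for CCAAT, and all matches are in capitals in the sequences that follow. The Uso1 promoter (chr5:92137688-92137987, plus strand) holds ACGTGGC on its minus strand in 2 copies (GCCACGT as printed), which begin 57 and 47 bases before the start. The Gorasp2 promoter (chr2:70661259-70661558, plus strand) holds none of these letters in this window.
Uso1: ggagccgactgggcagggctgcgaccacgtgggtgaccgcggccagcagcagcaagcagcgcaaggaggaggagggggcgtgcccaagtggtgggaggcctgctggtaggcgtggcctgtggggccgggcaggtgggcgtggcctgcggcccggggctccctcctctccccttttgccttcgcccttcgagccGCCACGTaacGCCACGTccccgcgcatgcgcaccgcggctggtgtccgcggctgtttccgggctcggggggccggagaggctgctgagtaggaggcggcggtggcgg
Gorasp2: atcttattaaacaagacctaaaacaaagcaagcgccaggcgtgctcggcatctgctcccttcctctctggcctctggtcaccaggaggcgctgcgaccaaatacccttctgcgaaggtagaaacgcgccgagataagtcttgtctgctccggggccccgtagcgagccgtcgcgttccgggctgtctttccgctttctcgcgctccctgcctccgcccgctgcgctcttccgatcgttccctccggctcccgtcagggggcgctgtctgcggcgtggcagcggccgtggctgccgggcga

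ACGTGGC was also found in the Golga3 promoter, 27 bases after the start on the minus strand, so that 2 of the 9 member promoters held it. Of all 32851 promoters of the same length, 2.58% did. TGACGTG was found in that of Golga1 alone (2.01% of all promoters), 169 bases before the start, and CCAAT in those of Golga2, Golga3 and Gorasp1 (37.4% of all promoters). A match of letters is a description and not a binding site.

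Around the members, 5 lists of other Golgi genes were read by the brightest probe set of each gene. Of 74 genes measured, 11 rose and 1 fell by limma, with a median log2 fold change of 0.10, against -0.02 over all genes and 0.26 for the golgins and GRASP proteins. Over all genes 4.06% rose and 3.83% fell. At an unadjusted limma p under 0.05, 10.7% of all genes were higher, and 2334 of 18193 were lower. The counts of each list are to be read beside these shares. Of the 74 genes 2 were below the median signal, against 7467 of the 18193, and calls were more frequent above it.

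Of 10 other golgins and coiled-coil Golgi proteins measured, 2 rose and 0 fell, with a median log2 fold change of 0.07. At an unadjusted limma p under 0.05 there were 2 higher and 1 lower. Of those that rose, the first was Blzf1, which encodes golgin-45, the partner of GRASP55. Its signals were 153, 147 and 154 in control and 216, 194 and 228 in AA cultures. The groups were well apart (0.52 on the log2 scale with a standard error of 0.10, limma adjusted p = 0.0276), and 2 of its 3 probe sets rose. The call was lost without replicate 1, 2 or 3 (adjusted p = 0.0723, 0.131 and 0.0642), after median centring (adjusted p = 0.0719) and with 50 added to every signal (adjusted p = 0.0549). The other was Golim4, a Golgi membrane protein that cycles through endosomes (log2 fold change 0.37, adjusted p = 0.0321). The call for Golim4 rested on 1 of its 2 probe sets and was lost without the replicate block (adjusted p = 0.0772), among others.

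Of 12 small GTPases and anchors that recruit golgins, 0 rose and 1 fell by the brightest probe set, and at an unadjusted p under 0.05 there were 2 higher and 2 lower. By any probe set, 4 genes of this list were higher (Arl1, Rab1a, Rab2a and Arf1, named after their values were seen) and 2 lower (Rab30 and Rab6b). By this reading the other golgins had 3 genes higher, the COG and GARP subunits 3, the fusion factors 7 and the residents 4. In these lists 0 were lower. The share over all genes was not taken by this reading, in which genes with more probe sets have more chances of a call. The one that fell by its brightest probe set was Rab30, a Golgi Rab, from signals of 183, 227 and 244 to 125, 143 and 162 (-0.57 on the log2 scale with a standard error of 0.10, limma adjusted p = 0.0193). The Rab30 probe set passed in 9 of 19 alternatives. That call was lost without the replicate block (adjusted p = 0.0515) and without replicate 2 (adjusted p = 0.153), among others. The brightest probe set of Arl1, which holds the GRIP golgins, stood at 0.14 on the log2 scale (limma adjusted p = 0.328), and 1 of its 3 probe sets rose. That of Rab1a, which brings p115 to membranes, stood at 0.22 (limma adjusted p = 0.137), and again 1 of 3 rose. The 1 probe set of Rab1b stood at 0.06 (limma adjusted p = 0.808).

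Of 12 subunits of the COG and GARP complexes, which tether vesicles inside the Golgi and at the trans-Golgi, 2 rose and 0 fell, with a median log2 fold change of 0.21. At an unadjusted limma p under 0.05 there were 4 higher and 0 lower. Cog6 had signals of 304, 308 and 345 in control and 467, 440 and 468 in AA cultures (0.57 on the log2 scale with a standard error of 0.09, limma adjusted p = 0.0102). Vps51 of GARP stood at 0.67 on the log2 scale (limma adjusted p = 0.0183), on 1 of its 3 probe sets.

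Of 13 Golgi SNAREs and fusion factors, to which the tethers hand their vesicles, 5 rose and 0 fell by limma, with a median log2 fold change of 0.20, and at an unadjusted p under 0.05 there were 7 higher and 0 lower. Bet1, an ER to Golgi SNARE, had signals of 476, 446 and 405 in control and 712, 667 and 642 in AA cultures (0.63 on the log2 scale with a standard error of 0.08, limma adjusted p = 0.00398). Scfd1, the SNARE regulator Sly1, and the SNARE Bet1l stood at 0.51 and 0.58 on the log2 scale (limma adjusted p = 0.0113 and 0.0146), and Nsf, the ATPase that takes SNARE complexes apart, 0.42 (adjusted p = 0.0212). Sec22b, named after its values were seen because it completes the 5, had 0.35 (adjusted p = 0.0260). Both probe sets of Bet1 and 3 of 4 of Bet1l rose. For Scfd1 it was 1 of 3, for Nsf 1 of 4 and for Sec22b 1 of 2.

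Of 27 Golgi glycan enzymes and other residents, 2 rose and 0 fell by limma, with a median log2 fold change of 0.09. At an unadjusted p under 0.05 there were 7 higher and 4 lower. Those that rose were Galnt3, which starts mucin-type O-glycans and acts on the bone hormone FGF23, and the sialyltransferase St3gal1, by 1.48 and 1.42 on the log2 scale (limma adjusted p = 0.00323 and 0.00987), each on 1 of its probe sets and from mean control signals of 28.3 and 22.9. Under a pseudocount of 50 both still passed, at 0.71 and 0.60. Of the 11 genes that rose over the 5 lists, Bet1, Galnt3 and St3gal1 passed without replicate 2, and the other 8 did not. Over the alternatives that could be run for each, Bet1 passed in 17 of 19, Cog6 in 14 of 19 and St3gal1 in 14 of 18, and at the other end Golim4 passed in 3 of 19 and Blzf1 in 7 of 19.

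**Figure D4:**
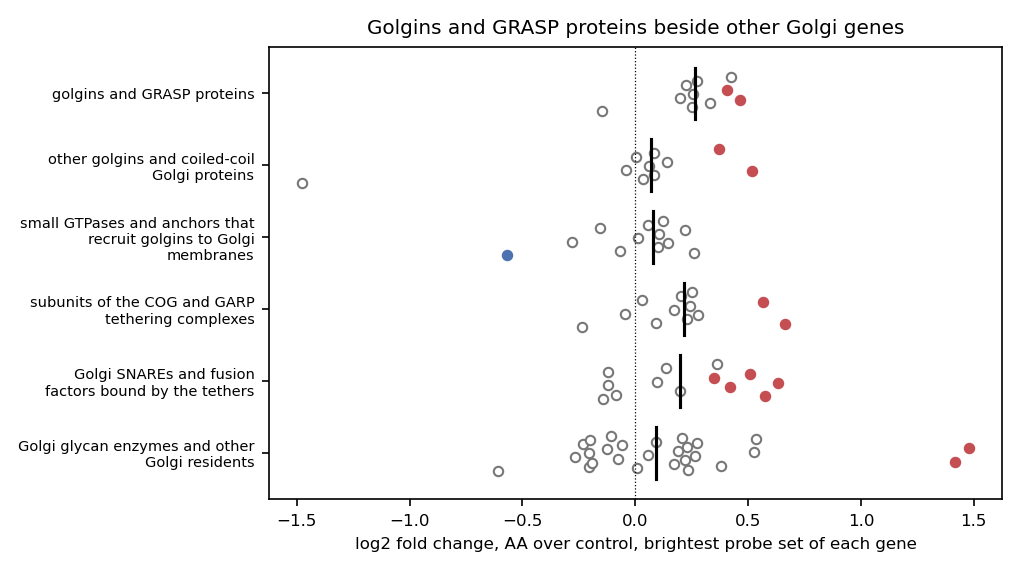
Log2 fold change of AA over control (x axis) of the brightest probe set of each gene, 1 point per gene, for the golgins and GRASP proteins and the 5 lists of other Golgi genes. Red points rose, the blue point fell, open points did not pass, and vertical bars are medians, 0.26 for the golgins and GRASP proteins and 0.07 to 0.21 for the lists.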

How the data were processed

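Gene expression was measured in 3 control and 3 AA-treated MC3T3-E1 cultures on 6 Affymetrix Mouse Genome 430 2.0 arrays. The values deposited by the authors are MAS5 intensity on a linear scale, per the submitters' processing notes. The 2% trimmed mean of each array was 150, so each had been scaled to one target. The study's methods name GC-RMA and quantile normalization in Partek, which these values do not carry. Reads are not counted on arrays, and the number of arrays limits the precision. The table gives no detection calls.

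The 64 control probe sets were set aside and 45037 were tested. Signals were put on the log2 scale, quantile-normalized and fitted with limma 3.58.1 in R 4.3.3 (eBayes with a trend in signal), taking the replicate number as a block since the study's methods name paired tests. The residual degrees of freedom were 2 and the prior added 6.18. The Benjamini-Hochberg adjustment covered these 45037, and an adjusted p under 0.05 was called. The script was run on simulated data with planted changes larger than those of most members and a spread drawn from the trend in signal. That run tests neither the trend itself nor calls at smaller folds. Gene symbols came from GEO's platform annotation and were updated by Entrez ID through RefSeq GRCm38.p6. Of the probe sets, 34945 had 1 symbol, 932 had several and 9160 had no symbol. RefSeq matched 34741 of the single symbols and 0 changed. A gene was read by its brightest probe set, that of the highest mean log2 signal. Fold changes and intervals are of normalized signals, and the signals printed per culture are as deposited.

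The golgin and GRASP members and the lists were chosen with earlier results of these data known. Every member was described by every probe set. From each list, up to 4 genes a direction with the smallest p were named, and for likeness the 5 genes with the highest correlation to the member probe set of smallest p. Alternatives were leaving out the block, signals as deposited, centring on the median, 50 added to every signal, filters on dim probe sets, moderation without a trend, the methods' t-test, the methods' threshold (unadjusted limma p under 0.01, fold of at least 1.5), other choices of probe set, and leaving out each replicate or array. For the methods' threshold the p-values were those of limma, where the study's methods name paired t-tests.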

Additional observations from a re-analysis of the deposited data

How the results depend on the processing

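The replicate numbers of the labels did not pair the cultures by their values: deviations from the group means correlated at 0.017, 0.004 and 0.010 between same-numbered arrays (0.190, 0.032 and 0.096 above the median signal), and not every array was nearest to its own number. Without the replicate block 4 golgin and GRASP probe sets were higher, as with it, by the brightest probe set 3 genes in place of 2, over all probe sets 2128 in place of 2343, and of the other Golgi genes 10 were higher and 0 lower, in place of 11 and 1. Of 4 member probe sets and 2 member genes higher, median centring kept 1 and 0, a pseudocount of 50 kept 2 and 1, moderation without a trend 0 and 0, the methods' t-test 1 and 1 at an unadjusted p under 0.01 and 0 and 0 after adjustment, and the methods' threshold of p and fold, taken with limma p, 2 and 0. No member was called lower in any of these. Leaving out a replicate or array gave 1 to 5 member probe sets, 0 to 3 member genes, 720 to 2108 of all probe sets, and 3 to 11 other Golgi genes higher and 0 to 2 lower. For all probe sets the count was 1443 with the pseudocount, 0 without the trend, and by the methods' t-test 1442 at an unadjusted p under 0.01 and 0 after adjustment. For the other Golgi genes the counts higher and lower were 6 and 2 after median centring, 0 and 0 without the trend and by the adjusted t-test, and 21 and 2 when any probe set could call a gene. The share of all genes by that last reading was not taken. The methods' threshold, taken with limma p, called 4 higher. By the t-test at an unadjusted p under 0.01, 2 were lower, and among probe sets above the median signal also 2. In the fit with the block, all probe sets past the threshold numbered 930 without replicate 2. Single arrays were left out in fits without the block (2128 with all arrays), which gave 720 without AA replicate 2, 864 without control replicate 2, 969 without AA replicate 1, 1162 without AA replicate 3 and 1305 without control replicate 3. Of 200 values of single member genes over these alternatives, 0 changed sign past the threshold, 17 lost a call and 4 gained one. Only Gorasp2 and Uso1 had a call to lose, and they kept it in 15 of 20 and 8 of 20 alternatives. The calls gained were 3 of Golga2 and 1 of Golga5. The 20 include a reading averaged over all probe sets of each gene, which the 19 counted per probe set do not. The cause of these changes was not tested. With 3 arrays a group, no member probe set with a fold under 1.33 passed in the main setting, and the 4 member probe sets below the median signal bound little.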
